A study of Mus musculus with 12 samples.

Results

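Myosin heavy and light chains of the heart were examined as a group of 10 genes. The members were taken by gene symbol and are 5 heavy chain genes (Myh3, Myh6, Myh7, Myh7b and Myh8) and 5 light chain genes (Myl1, Myl2, Myl3, Myl4 and Myl7), out of 51826 entries in the deposited count table. RNA-Seq had been performed on the atria and the ventricles of 6 female mice of the FVB strain at 10 weeks of age, which gave 12 libraries, 3 in each of 4 groups. CUG960 +dox mice (V119, V120 and V123) were homozygous for TREDT960I, a transgene with 960 interrupted CTG repeats in human DMPK exons behind a tetracycline response element, and hemizygous for MHCrtTA, which drives the reverse tetracycline transactivator from the αMHC (Myh6) promoter. MHCrtTA +dox controls (V327, V333 and V334) carried the transactivator alone. All mice of both groups were given doxycycline chow from postnatal day 1, so the controls share the drug and the transactivator, and the promoter is one of cardiomyocytes while the libraries were made from whole tissue. Each library held between 116127966 and 160676189 counts. The 10 members together took 4.08% to 4.12% of all counts in control atria, 4.41% to 4.85% in CUG960 +dox atria, 3.24% to 3.46% in control ventricles and 4.06% to 4.22% in CUG960 +dox ventricles, and the genotypes did not overlap in either chamber.

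Markers of other cell types moved beside this share. The summed level of 8 endothelial markers was 1074.1 to 1359.6 CPM in control atria and 907.7 to 1053.9 CPM in CUG960 +dox atria, and 758.1 to 917.4 against 637.3 to 678.2 CPM in ventricles, without overlap in either chamber (CPM are counts scaled to the TMM-adjusted size of each of the 12 libraries). Of these 8, Pecam1 and Tek fell in atria and Npr3 rose in ventricles, where a gene was called if its adjusted P value by the edgeR quasi-likelihood test was under 0.05 and its fold change reached 1.5. The log2 fold changes were −0.71 and −0.62 for Pecam1 and Tek in atria (adjusted P = 0.0043 and 0.0083 by edgeR), −0.53 and −0.45 in ventricles, below the fold limit of 1.5, and 0.68 for Npr3. The summed level of 8 fibroblast markers, led by Dcn, was 2244.5 to 2625.4 CPM in control atria and 1887.7 to 2214.2 CPM in CUG960 +dox atria, and overlapped in ventricles; 1 of the 8, Postn, fell in atria. Of 6 adipocyte markers, led by Fabp4, 5 were tested in each chamber, and Fabp4 and Plin1 fell in ventricles (log2 fold changes −0.60 and −1.86, adjusted P = 0.014 and 0.0091 by edgeR). None of 8 leukocyte markers was called in either chamber. The part of these cell types in the share of the myosin chains was not tested.

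A sarcomeric myosin molecule is built from a pair of heavy chains, each of which carries a motor head, and each heavy chain binds an essential and a regulatory light chain at its neck. The adult mouse heart runs mainly on the fast α heavy chain (Myh6), whereas the slower β chain (Myh7) dominates before birth and returns under hemodynamic stress. The light chains are divided by chamber: Myl7 and Myl4 are the atrial regulatory and essential chains, and Myl2 and Myl3 are their ventricular counterparts. Myh3 and Myh8 are the embryonic and perinatal heavy chains of skeletal muscle, Myl1 is the essential chain of fast skeletal fibers, and Myh7b is an ancient slow-type heavy chain whose intron harbors a microRNA.

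The heavy chains lie in 3 clusters or loci of the GRCm38 genome (GENCODE M21 annotation). Myh6 (ENSMUSG00000040752, chr14:54941921-54966927, minus strand) and Myh7 (ENSMUSG00000053093, chr14:54970684-54994626, minus strand) lie head to tail with 3756 bases between them. Myh3 (chr11:67078300-67102291) and Myh8 (ENSMUSG00000055775, chr11:67277124-67308634) are both on the plus strand of the skeletal myosin cluster, and Myh7b (chr2:155611212-155634307, plus strand) stands apart. The light chains are scattered: Myl1 (ENSMUSG00000061816, chr1:66924295-66945404, minus strand), Myl2 (ENSMUSG00000013936, chr5:122100951-122113472, plus strand), Myl3 (ENSMUSG00000059741, chr9:110741861-110769798, plus strand), Myl4 (ENSMUSG00000061086, chr11:104550663-104595753, plus strand) and Myl7 (ENSMUSG00000020469, chr11:5896637-5898782, minus strand). All 10 are annotated as protein coding.

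Of the heavy chain genes, 3 host a microRNA, and these sequences are shown because their host transcripts are the ones quantified here. Mir208a lies in intron 29 of Myh6, Mir208b in intron 31 of Myh7 and Mir499 in intron 19 of Myh7b, each on the strand of its host and outside the exons of the longest coding transcript. The mature sequences, from RefSeq (GRCm38.p6), are written with the seed, bases 2 to 8, in capitals.
miR-208a-3p: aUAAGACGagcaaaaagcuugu
miR-208b-3p: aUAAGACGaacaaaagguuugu
miR-499-5p: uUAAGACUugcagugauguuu
The hosts Myh6 and Myh7 thus carry microRNAs with the same seed, UAAGACG, and the seed of the Myh7b microRNA is UAAGACU. The 3 hairpin genes are listed at 0 in all 12 libraries, which were selected for poly(A) RNA, so the microRNAs themselves were not measured.

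Upstream sequences are shown for Myl7, the atrial regulatory chain, and for Myh8, the chain with the clearest genotype difference. Each is the 120 bases before the RefSeq start site (GRCm38.p6), on the strand of the gene and clear of annotated exons. Capitals in the Myl7 stretch (chr11:5898783-5898902, minus strand) mark CATTCC, the core of the MCAT element, and a CArG box, the recognition sequence of serum response factor, 70 and 61 bases before the start. Capitals in the Myh8 stretch (chr11:67277004-67277123, plus strand) mark a MEF2 site 99 bases before the start.
Myl7: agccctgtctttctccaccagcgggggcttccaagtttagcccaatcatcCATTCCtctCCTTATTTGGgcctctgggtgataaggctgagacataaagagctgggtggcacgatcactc
Myh8: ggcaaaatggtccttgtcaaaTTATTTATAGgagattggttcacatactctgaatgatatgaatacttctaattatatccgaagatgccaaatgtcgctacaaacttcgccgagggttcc
The 3 motifs were searched on both strands of the 250 bases before each RefSeq start and did not overlap one another in these genes. Of 32851 such windows, 12.6% held CATTCC, 1.47% a CArG box and 2.92% a MEF2 site. Among the members, Myl3 also held a CArG box, 85 bases before its start, and CATTCC was also found before Myl1, Myl3, Myh6 and Myh7. These are matches of letters only.

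The first comparison asked how the chains are distributed between the chambers. In the controls, 7 of the 9 members with enough counts to be tested differed between atria and ventricles (edgeR quasi-likelihood test, adjusted P value under 0.05 and fold change of at least 1.5), against 34.9% of all genes tested. Myl4, Myl7, Myl1 and Myh8 were higher in atria, and Myl2, Myl3 and Myh7b were higher in ventricles. Myh8 entered this test through the atria alone, since it had 1 to 3 counts in each control ventricle. Its call between chambers in controls is therefore not read as evidence. The same 7 genes differed in the same directions in CUG960 +dox mice, where 33.6% of all genes did. Myh3 had between 0 and 2 counts in every library, at or under the limit of 3 counts per library below which no level is read, and was not tested.

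Of the ventricular light chains, Myl2 in controls was at 9406.5 ± 1026.4 CPM in ventricles and 18 ± 13.5 CPM in atria (SD, n = 3 mice), a log2 difference of −9.04 ± 0.60 (SE, adjusted P = 6.5e-06 by edgeR). In CUG960 +dox mice Myl2 stood between 9395.6 and 10037.1 CPM in ventricles and 9.63 ± 0.71 CPM in atria. Myl3 behaved alike, with 5893.8 ± 827.9 CPM in control ventricles and 11.9 ± 7.8 CPM in control atria, a log2 difference of −8.96 ± 0.53 (adjusted P = 3.6e-06 by edgeR). All ventricular libraries lay far above all atrial libraries for both genes. Without control V327 the differences in controls were −9.86 for Myl2 and −9.66 for Myl3.

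The atrial light chains mirrored this. Myl4 was at 6144.6 ± 181.6 CPM in control atria and 21.9 ± 13.6 CPM in control ventricles, 8.13 ± 0.47 higher on the log2 scale (adjusted P = 3.2e-06 by edgeR). Myl7 was at 2841.5 ± 38.4 CPM in control atria and 10.8 ± 7.6 CPM in control ventricles, 8.04 ± 0.54 higher (adjusted P = 6.5e-06 by edgeR). In CUG960 +dox mice the differences were 7.27 ± 1.19 for Myl4 and 7.26 ± 1.84 for Myl7, with larger errors, and the 3 ventricular libraries differed widely from each other. Without V123 they were 10 for Myl4 and 13.61 for Myl7, above the control values, and without V119 that of Myl7 was 6.58. With the mouse as a block they were 8.74 for Myl4 and 11 for Myl7. In controls without V334 the differences were 8.74 for Myl4 and 8.78 for Myl7. Myl1 was found in both chambers, at 361.5 ± 42.5 CPM in control atria and 69.5 ± 7.4 CPM in control ventricles, a 5.18-fold difference.

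Among the heavy chains, Myh7b was far higher in ventricles, with 3813 to 4308 counts in each control ventricular library and 59 to 105 counts in each control atrial library, a 76.4-fold difference. Myh8 was higher in atria at a low level. Myh6, the most abundant heavy chain, was at 25506.3 ± 379.6 CPM in control atria and 23311.0 ± 476.8 CPM in control ventricles. These groups did not overlap, yet the log2 difference of 0.12 ± 0.09 did not pass the test (adjusted P = 0.25 by edgeR). Myh7 was 0.35 ± 0.11 lower in control atria than in ventricles on the log2 scale (adjusted P = 0.023 by edgeR), below the fold limit. Its direction rested on the scaling, since with total counts as library sizes the difference was 0.11 in controls and 0.0055 in CUG960 +dox mice, a scaling that shifted the median of all genes to 0.49 and 0.40.

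**Figure D1:**
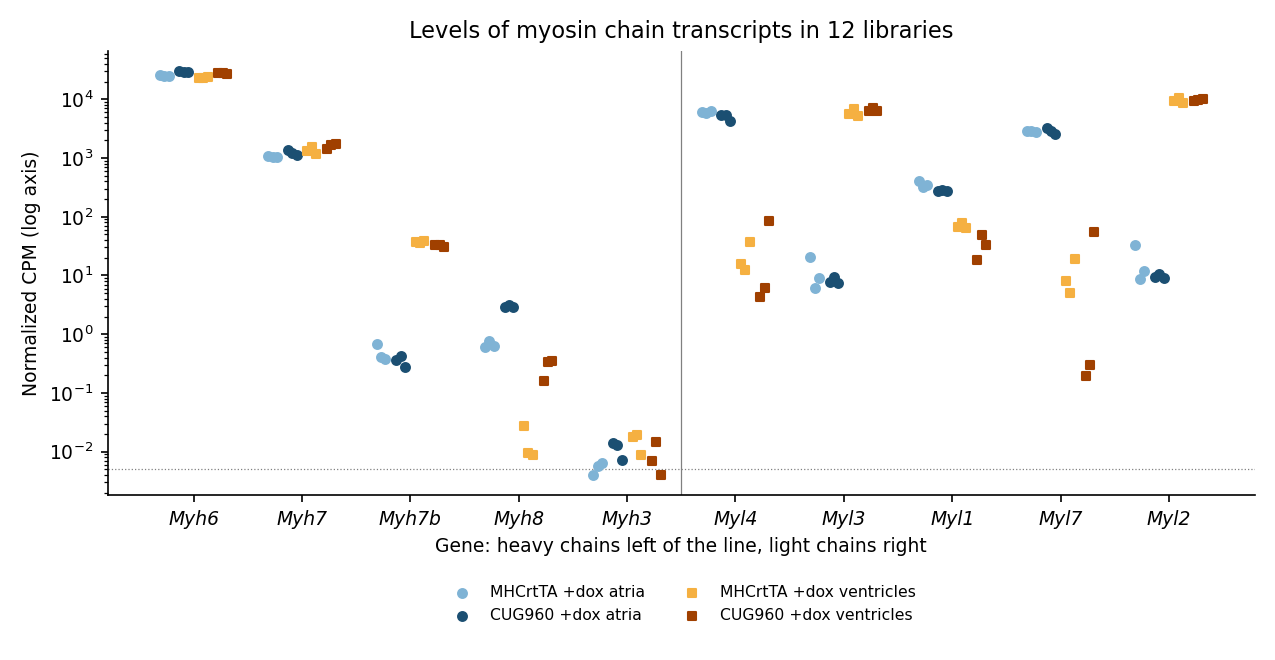
Normalized CPM (log axis) of the 10 myosin chain genes, with 1 point per library and 3 libraries per group; points below the dotted line had 0 counts. Myl4 and Myl7 are high in all atria (at least 2521 CPM) and Myl2 and Myl3 in all ventricles (at least 5281 CPM), whereas Myh6 and Myh7 lie at similar levels in both chambers.

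The labels of the chambers were checked against marker genes other than myosins. Of 12 atrial cardiomyocyte markers, 10 were higher in atria in each genotype, and of 9 ventricular markers, 7 were higher in ventricles in controls and 8 in CUG960 +dox mice. Kcna5, listed as atrial, was lower in atria in both genotypes. With genotype, Fhl2 of the ventricular list rose in atria, from 67.5 to 73.2 CPM in controls to 142.1 to 159.5 CPM (log2 fold change 1.09 ± 0.07, adjusted P = 7.6e-05 by edgeR).

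Levels of different genes were compared per kilobase of the longest coding transcript. In control atria the order was Myl4 (6516.0 ± 192.9 CPM per kb), Myl7 (4816.1 ± 64.7), Myh6 (4172.5 ± 61.9), Myl1 (334.1 ± 39.3) and Myh7 (170.1 ± 6.3), and no neighbors among these 5 overlapped. Below them came Myl2 (20.3 ± 15.2 CPM per kb) and Myl3 (12.7 ± 8.3), which overlapped each other, and then Myh8 (0.108 ± 0.014) and Myh7b (0.0799 ± 0.0276), which also overlapped. In control ventricles Myl2 (10580.8 ± 1154.7 CPM per kb), Myl3 (6290.0 ± 883.6), Myh6 (3813.3 ± 78.0), Myh7 (216.5 ± 31.5) and Myl1 (64.3 ± 6.8) stood in this order without overlap. Myl4 (23.2 ± 14.4 CPM per kb) and Myl7 (18.3 ± 12.8) overlapped each other, and Myh7b (6.07 ± 0.18) came next.

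In CUG960 +dox atria, Myl4 (5318.3 ± 706.8 CPM per kb), Myl7 (4934.0 ± 667.6) and Myh6 (4875.3 ± 90.1) overlapped as neighbors in the order. In CUG960 +dox ventricles the first 4 positions were as in controls, and Myl4 (34.2 ± 49.6 CPM per kb), Myl7 (31.9 ± 54.5) and Myl1 (31.0 ± 14.0) overlapped.

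Summed by class, the essential chains (Myl1, Myl3 and Myl4) stood to the heavy chains per kilobase at a ratio of 1.57, 1.54 and 1.63 in the atria of controls V327, V333 and V334. In the atria of CUG960 +dox mice V119, V120 and V123 the ratio was 1.16, 1.19 and 0.954, so every CUG960 +dox atrium lay below every control. In ventricles the same ratio was 1.41 to 1.81 in controls and 1.42 to 1.602 in CUG960 +dox mice, and the groups overlapped. The regulatory chains (Myl2 and Myl7) stood to the heavy chains at 1.11 to 1.12 in control atria and 0.857 to 1.08 in CUG960 +dox atria, and at 2.35 to 2.91 and 2.22 to 2.39 in the ventricles. The regulatory ratio thus also lay lower in every CUG960 +dox atrium than in every control, and it overlapped in ventricles. Both ratios share the heavy chain sum, which was 4300.3 to 4421.3 CPM per kb in control atria and 5000.3 to 5199.4 in CUG960 +dox atria. These ratios are given as a description with no test.

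**Figure D2:**
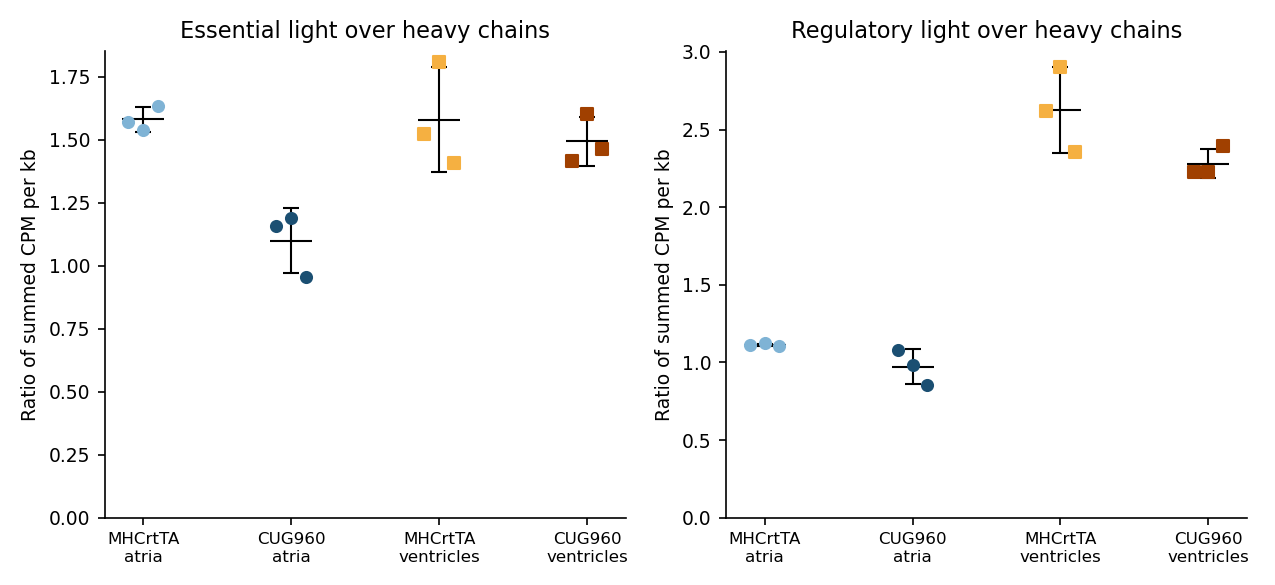
Ratio of summed essential light chain (left) and regulatory light chain (right) CPM per kb to summed heavy chain CPM per kb, with 1 point per library and the mean ± SD of 3 mice. The essential ratio of CUG960 +dox atria (0.954 to 1.19) lies below that of control atria (1.54 to 1.63). The regulatory ratio of CUG960 +dox atria (0.857 to 1.08) also lies below that of control atria (1.11 to 1.12), and the ventricular groups overlap in both ratios.

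The second comparison asked, for the atria, which chains differed with genotype. Myh8 rose, and no other member passed both thresholds. This is 1 of 9 members tested, beside 5.49% of all genes tested. The groups did not overlap for 5 members (Myh6, Myh7, Myh8, Myl1 and Myl4), beside 35.7% of all genes.

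Myh8 had 93, 133 and 97 counts in the control atria and 418, 492 and 394 counts in the CUG960 +dox atria. Every CUG960 +dox library lay above every control, at 2.99 ± 0.15 against 0.664 ± 0.087 CPM (SD, n = 3 each), a 4.499-fold difference (log2 fold change 2.17 ± 0.15, SE, adjusted P = 1.7e-04 by edgeR). The gene shares 6.61% of its 100-base windows with other annotated genes, most of them with Myh2, so part of its reads could belong to other chains of the cluster. Other chains of the cluster had far fewer counts, several at or under the limit of 3. Myh2 had 2, 3 and 4 counts in control atria and 12, 7 and 10 in CUG960 +dox atria, and Myh4 had 3, 0 and 1 against 5, 6 and 6, too few for the test. Myh13 had 6, 7 and 2 against 13, 12 and 11 counts (log2 difference 1.40 ± 0.49, adjusted P = 0.095 by edgeR), while Myh1, with 5 to 14 against 3 to 10 counts, overlapped. How reads were divided among these chains was not tested.

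Myh6 was at 25944.4, 25300.5 and 25274.0 CPM in control atria and at 30430.4, 29512.8 and 29446.2 CPM in CUG960 +dox atria. The 2 groups were separate, but the difference of 0.22 ± 0.06 on the log2 scale (adjusted P = 0.039 by edgeR) was below the fold limit. Myh7 was 0.23 ± 0.08 higher (adjusted P = 0.091 by edgeR). Myh6 and Myh7 share 687 windows of 100 bases, 11.4% and 11.2% of their transcripts, and reads from these were divided by RSEM.

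Among the atrial light chains, Myl1 had 62507, 57020 and 54538 counts in controls and 38785, 45302 and 37914 in CUG960 +dox atria. All CUG960 +dox values were lower, by 0.37 ± 0.09 on the log2 scale (adjusted P = 0.027 by edgeR), again below the fold limit. Myl4 was at 5951 to 6312 CPM in controls and at 5425, 5372 and 4245 CPM in V119, V120 and V123, a log2 difference of −0.29 ± 0.10 (adjusted P = 0.085 by edgeR). Myl7, the regulatory partner, overlapped between genotypes at 2800 to 2876 CPM in controls and 2521 to 3308 CPM in CUG960 +dox atria (log2 difference 0.03 ± 0.10, adjusted P = 0.85 by edgeR).

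The ventricular chains in atria depended on a control mouse. Myl2 had 5112, 1535 and 1839 counts in control atria and 1355, 1620 and 1227 in CUG960 +dox atria, and Myl3 had 3168, 1061 and 1400 against 1119, 1440 and 994. Control V327 was the high one for both, at 0.356% and 0.352% of their mean CPM in ventricles of the same genotype, whereas the other 5 atria held 0.0932% to 0.152%. The log2 differences were −0.90 ± 0.43 for Myl2 and −0.55 ± 0.38 for Myl3 (adjusted P = 0.20 and 0.38 by edgeR). Without V327 the difference was −0.10 for Myl2, and that of Myl3 turned to 0.11. Other genes that are higher in ventricles were mixed. Of the 9 ventricular markers, 4 were highest of all atria in V327 (Irx3, Irx4, Hey2 and Gja1), and the other 5 were highest in V333 (Irx5 and Kcnj2), V123 (Fhl2 and Kcnip2) or V120 (Lrrc10). Mybpc3 was lowest in V327, at 1206.2 CPM against 1313.9 to 1631.3 CPM. Irx4, a ventricular transcription factor, had 10 counts there and 2 to 7 in the other 5 atria, Acta1, the skeletal actin, had 1781 counts against 252 to 940, and Myh7b had 105 counts against 38 to 72. Irx3 was at 0.851 CPM in V327 and at 0.363 to 0.707 CPM in the others. Kcnip2 was at 20.6 CPM in V327, 13.9 and 16.4 CPM in the other controls and 21.3 to 24.98 CPM in CUG960 +dox atria, and Fhl2 was at 72.5, 67.5 and 73.2 CPM in the control atria. The summed level of the 9 ventricular markers was 454.6, 423.0 and 453.1 CPM in V327, V333 and V334, and more than any other gene it held Gja1, which overlapped between chambers in controls. None of the 9 was at 0 in any atrium. The part of ventricular tissue in this library was not tested.

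In the ventricles, 2 of 9 members were called, Myh8 as higher and Myl1 as lower, beside 4.75% of all genes tested. Myh8 entered the test through the CUG960 +dox libraries alone, since its control counts were at or under 3. Its call in ventricles is therefore not read as evidence. The groups did not overlap for 4 members (Myh6, Myh7b, Myh8 and Myl1), beside 31.2% of all genes. Fewer cells of a type and less RNA per cell cannot be told apart in these bulk libraries.

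Myh8 had 3, 1 and 1 counts in the control ventricles and 23, 47 and 43 counts in those of CUG960 +dox mice. The controls were at or under the limit of 3 counts, and every CUG960 +dox ventricle was above it. Summed over the mice, 113 counts stood against 5. The lower end of the exact 95% interval of their scaled ratio was 7.54. This interval covers counting error only and not the spread between mice, so it is not read as support. The gene entered the test through the CUG960 +dox counts, so its adjusted P value (0.0035 by edgeR) is not read as support. At 0.281 ± 0.107 CPM the CUG960 +dox ventricles stayed below the control atria. With a minimum of 10 counts in every library Myh8 was not tested. The neighboring chains had few counts here as well, with 0 to 1 for Myh1, 1 for Myh2 and 0 for Myh4 in each control ventricle and 4 to 7, 3 to 15 and 1 to 4 in each CUG960 +dox ventricle.

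Myl1 had 7435, 8188 and 7128 counts in the control ventricles and 2712, 6760 and 4145 in those of V119, V120 and V123. The gene shares 9.36% of its 100-base windows with the pseudogene Mylf-ps. All 3 CUG960 +dox mice were lower, at 33.6 ± 15.2 against 69.5 ± 7.4 CPM, and they were spread more widely than the controls. The difference was 2.07-fold (log2 fold change −1.05 ± 0.27, SE, adjusted P = 0.042 by edgeR). It lost the call without V123 (adjusted P = 0.096) or without control V327, V333 or V334 (0.093, 0.10 and 0.065), and with total counts as library sizes (0.053).

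**Figure D3:**
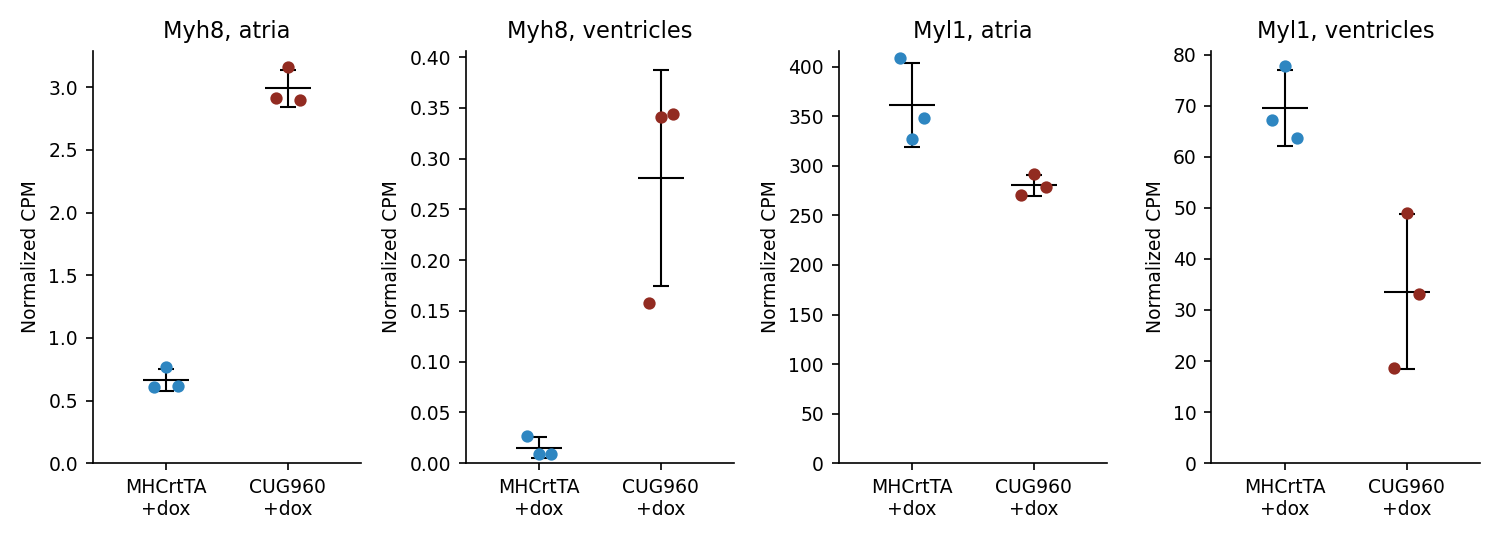
Normalized CPM of Myh8 and Myl1 in atria and ventricles, with 1 point per mouse and the mean ± SD of 3 mice per genotype. Myh8 is higher in all CUG960 +dox libraries of both chambers, and Myl1 is lower in all of them, most widely spread in the ventricles (18.6 to 49.0 CPM).

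The abundant chains of the ventricle moved little. Myh6 was at 22808.2 to 23756.6 CPM in controls and 27393.3 to 28014.4 CPM in CUG960 +dox mice, without overlap, 0.25 ± 0.09 higher on the log2 scale (adjusted P = 0.13 by edgeR). Myh7 was 0.26 ± 0.12 higher and overlapped (adjusted P = 0.21 by edgeR). Myh7b was at 36.2 to 38.5 CPM in controls and 30.3 to 33.2 CPM in CUG960 +dox ventricles, 0.22 ± 0.07 lower on the log2 scale (adjusted P = 0.092 by edgeR). Myl2 and Myl3 differed by 0.04 ± 0.11 and 0.17 ± 0.12 (adjusted P = 0.84 and 0.41 by edgeR). In the same libraries, mitochondrially encoded transcripts took 19.6% to 20.5% of counts in control ventricles and 15.3% to 18.4% in CUG960 +dox ventricles, and their part in the differences of Myh6 and Myh7 was not tested.

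**Figure D4:**
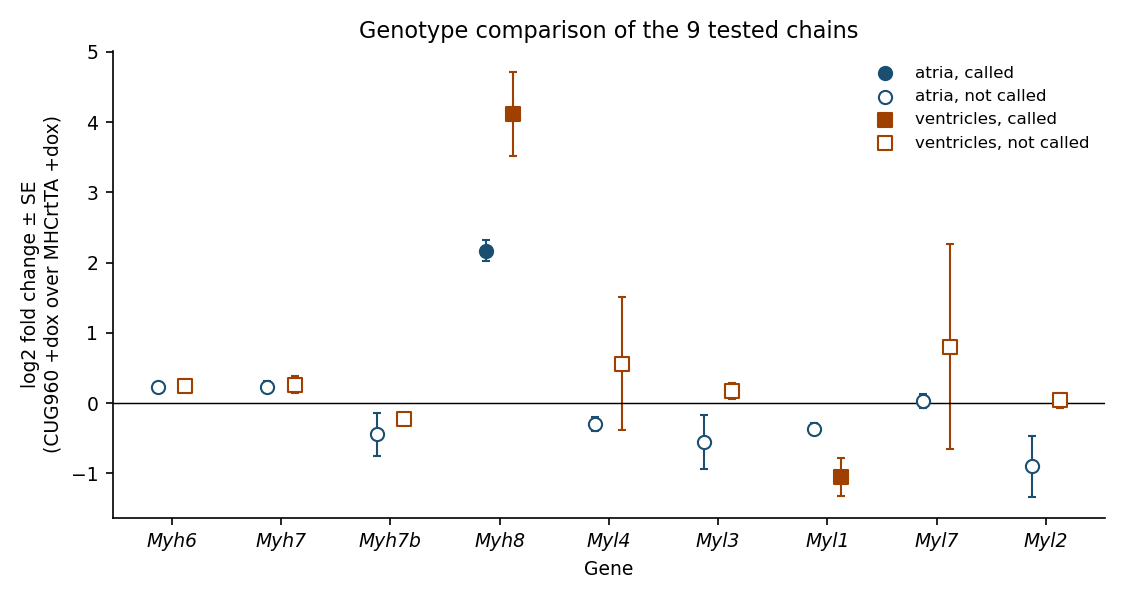
Log2 fold change ± SE of CUG960 +dox over MHCrtTA +dox in atria (circles) and ventricles (squares) for the 9 tested chains; filled symbols passed both thresholds. Myh8 is called in both chambers (in ventricles against controls at or under 3 counts) and Myl1 in ventricles. The error bars of Myl4 and Myl7 in ventricles are the longest.

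The atrial light chains in the ventricles separated the CUG960 +dox mice from each other. Myl7 had 887, 524 and 2166 counts in the control ventricles V327, V333 and V334, and 28, 42 and 6995 counts in V119, V120 and V123. Myl4 had 1731, 1323 and 4203 counts in controls and 635, 846 and 10791 in V119, V120 and V123. V119 and V120 were below every control and V123 was above every control for both genes.

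Over the 3 mice the log2 differences were 0.80 ± 1.46 for Myl7 and 0.56 ± 0.95 for Myl4 (adjusted P = 0.78 and 0.76 by edgeR). Without V123 they reversed to −5.44 and −2.06 (adjusted P = 0.0021 and 0.029 by edgeR), and both genes passed the thresholds. In that fit Myh8, Myl4 and Myl7 were the members called, and Myl1 was not.

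Sln, which encodes the atrial calcium pump inhibitor sarcolipin, was likewise lowest in V119 and V120 and highest in V123. It had 321, 315 and 878 counts in control ventricles and 31, 47 and 2320 in V119, V120 and V123. As a share of the mean CPM in the atria of the same genotype, V123 ventricles held 1.92% of Myl7, 1.72% of Myl4 and 1.36% of Sln, and control V334 held 0.680%, 0.610% and 0.572%. V119 held 0.0066% of Myl7 and 0.087% of Myl4, and V120 held 0.010% and 0.12%. Other atrial markers did not all follow this order. Nppa was highest in V120, at 1.89% of its atrial mean, with 1.28% in V123, 0.729% in V119 and 0.306% to 0.534% in the controls. Bmp10, a growth factor of atrial muscle, had 269, 252 and 420 counts in control ventricles and 5, 38 and 26 in V119, V120 and V123, and Dkk3 was at 4.62 to 13.4 CPM in controls and 4.44, 5.91 and 17.3 CPM in V119, V120 and V123. The summed level of the 12 atrial markers was 429.1 to 483.9 CPM in control ventricles and 415.0, 587.1 and 518.1 CPM in V119, V120 and V123, and more than any other gene it held Kcnk3, which was not called between chambers (log2 difference 0.10, adjusted P = 0.18 by edgeR, in controls). None of the 12 was at 0. The part of atrial tissue in these libraries was not tested.

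**Figure D5:**
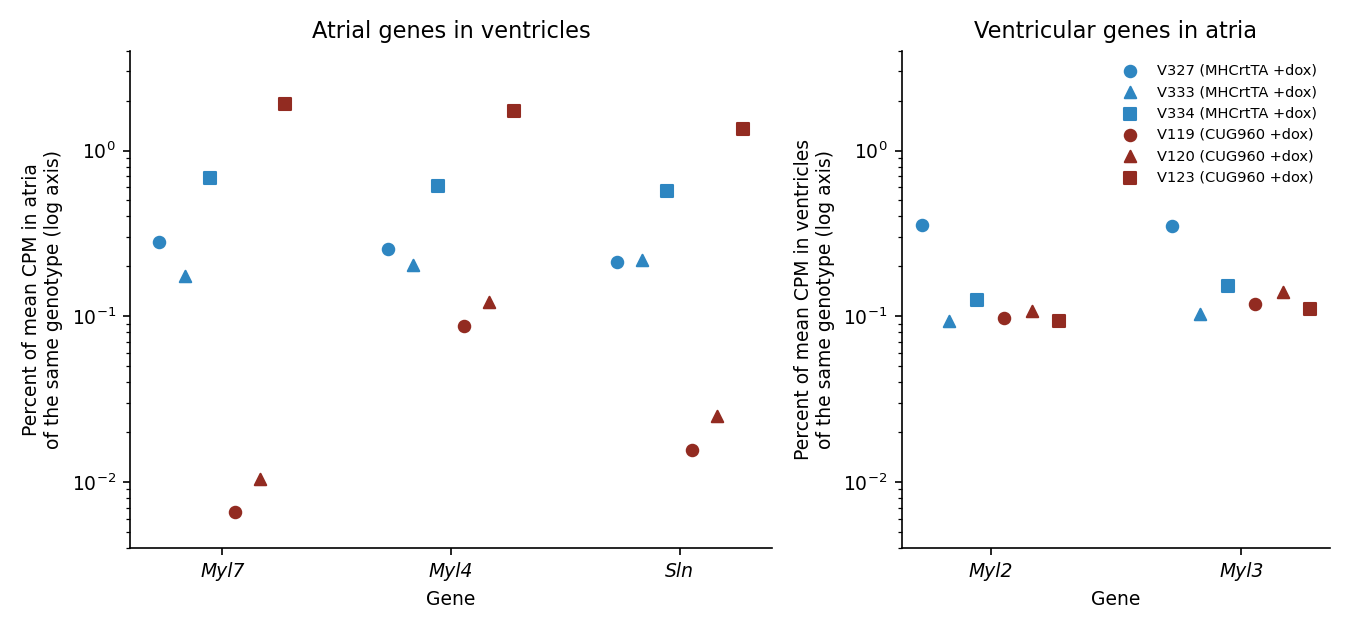
Level of atrial genes in each ventricular library (left) and of ventricular light chains in each atrial library (right), as percent of the mean CPM in the other chamber of the same genotype, on log axes. CUG960 +dox mouse V123 is highest for Myl7 (1.92%), Myl4 and Sln, V119 and V120 are lowest for these 3 genes, and control V327 is highest for Myl2 and Myl3.

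Whether a chain responded differently in the chambers was tested as the interaction of chamber and genotype over all 12 libraries. None of the 9 members passed an adjusted P value of 0.05 by edgeR, beside 1.38% of all genes tested, and none did by DESeq2. Myh8 had the only unadjusted P value under 0.05, 0.0043 (interaction 1.95 ± 0.56 on the log2 scale, adjusted P = 0.14 by edgeR). Its ventricular part was set against controls of 1 to 3 counts, so this term is not read as evidence. For Myl7 the interaction was 0.76 ± 1.73 (adjusted P = 0.92 by edgeR), and without V123 it was −5.57 (adjusted P = 0.0084 by edgeR). The fall of Myl1 in ventricles and its smaller difference in atria were not shown to differ (interaction −0.68 ± 0.34, adjusted P = 0.45 by edgeR).

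The shares of alternative chains were compared per kilobase. Myh7 made up 3.92% ± 0.08 of the sum of Myh6 and Myh7 in control atria and 3.93% ± 0.29 in CUG960 +dox atria (SD, n = 3; exact permutation test, two-sided, p = 0.9). In ventricles the share was 5.37% ± 0.78 and 5.42% ± 0.47 (exact permutation p = 0.9). Myl7 made up 99.2%, 99.8% and 99.7% of Myl7 plus Myl2 in the atria of V327, V333 and V334 and 99.8% in each CUG960 +dox atrium. Its share in ventricles was 0.131%, 0.0712% and 0.341% in the controls and 0.0031%, 0.0048% and 0.833% in V119, V120 and V123. Myl4 made up 99.7% to 99.9% of Myl4 plus Myl3 in all atria, and in ventricles 0.182% to 0.701% in controls and 0.0689% to 1.32% in CUG960 +dox mice. In each of the 6 comparisons the genotypes overlapped, every adjusted p was 1, and the smallest p that 3 mice against 3 can give is 0.1.

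The regulation and folding of myosin was followed in a list of 19 genes, of which 18 were tested in each chamber. In atria 1 rose and 1 fell, with a median log2 difference of 0.04, and in ventricles 2 rose and 2 fell, with a median of 0.09. The median of all genes tested was −0.0088 in atria and −0.0094 in ventricles. Mylk4, a kinase of the myosin light chain kinase family, rose in both chambers. It was at 101.2 to 120.5 CPM in control atria and 275.3 to 358.2 CPM in CUG960 +dox atria (log2 fold change 1.58 ± 0.11, adjusted P = 1.7e-04 by edgeR), and at 196.4 to 215.8 against 366.4 to 414.0 CPM in ventricles (0.97 ± 0.08, adjusted P = 2e-04 by edgeR). Mybpc2, the fast skeletal form of myosin-binding protein C, fell in both. It was at 14.1 to 18.4 CPM in control atria and 3.27 to 5.39 CPM in CUG960 +dox atria (log2 fold change −2.01 ± 0.19, adjusted P = 7.0e-04 by edgeR), and at 65.9 to 75.6 against 11.6 to 17.2 CPM in ventricles (−2.24 ± 0.14, adjusted P = 4.0e-05 by edgeR). For both genes every CUG960 +dox library was on one side of every control.

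In ventricles Mybphl, a myosin-binding protein H-like gene of the atria, rose as well. It was at 2.33, 2.30 and 4.82 CPM in V327, V333 and V334 and at 4.44, 19.6 and 18.5 CPM in V119, V120 and V123 (log2 fold change 2.17 ± 0.50, adjusted P = 0.028 by edgeR), and V119 overlapped with the controls. Mylk, the light chain kinase of smooth muscle, fell from 23.8 to 36.7 CPM in controls to 18.4 to 21.5 CPM (−0.71 ± 0.15, adjusted P = 0.021 by edgeR). Mybpc3, the cardiac myosin-binding protein C and the most abundant gene of the list, was 0.38 ± 0.10 higher in CUG960 +dox ventricles (adjusted P = 0.044 by edgeR), below the fold limit.

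Of 16 other myosin chains, 11 were tested in atria and 10 in ventricles, and 1 fell in each. Myh14, a nonmuscle heavy chain, fell in atria from 77.9 to 101.7 CPM to 55.1 to 63.8 CPM (log2 fold change −0.61 ± 0.10, adjusted P = 0.0075 by edgeR). In ventricles its log2 difference was −0.57 ± 0.11 (adjusted P = 0.011 by edgeR), without overlap but below the fold limit. Myh11, the smooth muscle heavy chain, fell in ventricles from 40.4 to 67.0 CPM to 34.3 to 39.5 CPM (−0.65 ± 0.17, adjusted P = 0.039 by edgeR). The median differences of the list were −0.02 and −0.04. Myl12a, a nonmuscle regulatory chain and the most abundant of the list, overlapped between genotypes in both chambers. Beside the fall of Myh11 and Mylk, 4 of 8 smooth muscle markers fell in ventricles (these 2, Tagln and Lmod1), while Tagln rose in atria. The summed level of that list was 1836.3 to 2004.9 CPM in control ventricles and 1552.5 to 2065.6 CPM in CUG960 +dox ventricles. Most of this sum was Des, at 1439.5 to 1638.9 and 1245.3 to 1659.3 CPM, which was not called in either chamber. The sum thus mainly follows Des and says little of the other markers. The part of smooth muscle in the differences of the called genes was not tested.

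Regulators of myosin gene transcription formed a list of 28 genes, with 26 tested in atria and 27 in ventricles. Hey2, a ventricular repressor of atrial genes, fell in atria from 2.08 to 2.18 CPM to 0.985 to 1.596 CPM (log2 fold change −0.67 ± 0.19, adjusted P = 0.049 by edgeR). In ventricles its log2 difference was −0.52 ± 0.14 (adjusted P = 0.049 by edgeR), without overlap but below the fold limit. Myocd, the cofactor of serum response factor, rose in ventricles from 21.97 to 32.5 CPM to 37.0 to 42.6 CPM (0.61 ± 0.14, adjusted P = 0.028 by edgeR). No other regulator was called in either chamber, and the medians of the list were −0.09 and 0.06. Hopx, the most abundant of them by its mean over the 12 libraries though not in most atria, was 0.27 ± 0.07 higher in CUG960 +dox atria on the log2 scale (adjusted P = 0.039 by edgeR), below the fold limit.

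The fetal and stress program, a list of 6 genes that includes none of the members, had 1 gene called in atria, which was lower, and 3 called in ventricles, which were higher, with medians of −0.71 and 0.52. The other 3 genes had negative differences in ventricles and were not called. Acta1, the skeletal actin of the fetal heart, was at 642.7 to 856.6 CPM in control ventricles and 195.5 to 509.1 CPM in CUG960 +dox ventricles, without overlap (log2 difference −1.02 ± 0.29, adjusted P = 0.054 by edgeR). The differences of Xirp2 and Nppb were −0.20 and −0.11. In ventricles Nppa, which encodes atrial natriuretic peptide, was at 48.6, 54.4 and 84.8 CPM in controls and 86.6, 224.4 and 151.5 CPM in V119, V120 and V123 (log2 fold change 1.301 ± 0.31, adjusted P = 0.031 by edgeR). Ankrd1, a stress-responsive sarcomere protein, was at 989.8 to 1329.6 CPM in controls and 2275.3 to 2711.7 CPM in CUG960 +dox ventricles (1.16 ± 0.12, adjusted P = 6.9e-04 by edgeR). Tnni1, the slow skeletal troponin I of the fetal heart, had 26, 35 and 17 counts in controls and 116, 81 and 106 in CUG960 +dox ventricles (1.63 ± 0.33, adjusted P = 0.017 by edgeR). In atria Xirp2, which encodes an actin-binding protein of the intercalated disc, fell from 446.6 to 466.2 CPM to 198.2 to 249.5 CPM (−0.99 ± 0.09, adjusted P = 5.2e-04 by edgeR). Myh7, the classic heavy chain of this program, was not called in either chamber, as given above.

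Because Myh8 and Myl1 are also genes of skeletal muscle, 15 skeletal muscle markers were set beside them. In atria 10 were tested, none was called higher, and Ckm, Tnni2 and Tnnt3 were called lower. In ventricles 11 were tested, Myod1, Pvalb and Tnnt1 were called higher, and none lower. Myod1 and Pvalb entered that test through the CUG960 +dox libraries, so their calls are not read as evidence. Without a call, Tnnt3, Tnni2 and Acta1 were lower in ventricles (−1.09, −0.98 and −1.02 on the log2 scale) and Tnnt1 was higher in atria (0.45), all without overlap. The other markers that were tested and not called overlapped. Of those not tested, Pvalb, Myh2 and Myh4 in atria and Myh1, Myh2 and Myh4 in ventricles were higher without overlap, at few counts. The rest of those not tested overlapped. Ckm, which is also made in heart muscle, was the most abundant of the list in every library. The summed level was 801.1 to 840.0 CPM in control atria and 499.1 to 603.8 CPM in CUG960 +dox atria, and 2687.6 to 2802.4 against 1870.5 to 2516.7 CPM in ventricles. In ventricles Ckm overlapped between genotypes, whereas Acta1, also in this sum, was at 642.7 to 856.6 CPM in controls and 195.5 to 509.1 CPM in CUG960 +dox mice. Pvalb had 1, 4 and 0 counts in control ventricles and 62, 27 and 22 in those of V119, V120 and V123, and Myod1 had 4, 0 and 0 against 40, 29 and 19. In atria Myod1 had 0 to 1 counts in controls and 0 in all CUG960 +dox libraries. The skeletal heavy chains Myh1, Myh2 and Myh4 are also on this list; several of their counts, given above, were at or under the limit of 3, and none was tested between genotypes. The part of skeletal muscle fibers in the differences of Myh8 and Myl1 was not tested.

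Of the transcripts within or beside the myosin genes, only Mhrt could be tested. Mhrt (chr14:54968678-54974349, plus strand) is a noncoding RNA transcribed antisense to Myh7 and overlaps it over 3666 bases. It was at 54.9 to 63.4 CPM in control atria and 62.8 to 75.5 CPM in CUG960 +dox atria (log2 difference 0.21 ± 0.09, adjusted P = 0.15 by edgeR), and at 61.0 to 74.2 against 71.7 to 77.5 CPM in ventricles (0.17 ± 0.09, adjusted P = 0.26 by edgeR). The libraries were stranded, but whether the counting used strand is not given in the sources used here, so reads of Mhrt and Myh7 in the overlap may be shared.

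The genes most like each chain were ranked by Pearson's r of log2 CPM over the 12 libraries, among the 8706 genes whose mean reached 10 CPM. These libraries fall into 2 chambers, and the values describe mainly that split for genes of 1 chamber. Myl2 was closest to Myl3 (r = 0.9996), Myh7b (0.998) and Gm34302 (0.997). Myl7 was closest to Sln (0.996), Cilp2 (0.983) and Myl4 (0.981), and Myl4 to Cilp2 (0.997), Sphkap (0.993) and Sln (0.993). Myh6 was closest to Pgrmc2 (0.985), Pkp4 (0.977) and Iffo1 (0.972), and Myh7 to Brk1 (0.978), Ddt (0.971) and Pycrl (0.966). Within the 6 ventricular libraries, Myl7 was again closest to Sln (0.996), followed by Gga2 (0.965) and Gzf1 (0.960), and Myl4 to Cilp2 (0.991), Slc7a7 (0.980) and Gne (0.974). Myh7 was closest to Nop56 (0.994), Commd2 (0.988) and Spryd4 (0.986) there. The libraries share mice and depth, and the values are given as a description.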

How the data were processed

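RNA of atria and ventricles from 3 CUG960 +dox and 3 MHCrtTA +dox mice was sequenced in stranded, poly(A)-selected, paired-end libraries. The authors aligned the reads to GRCm38, estimated expected counts per gene with RSEM 1.3.1, which divides reads shared by several loci, and deposited them as whole numbers without scaling. Of the 51826 entries, 91 symbols are repeated, none of them a member. Coordinates came from GENCODE M21.

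With edgeR 4.0.16 (R 4.3.3, limma 3.58.1), low genes were removed by filterByExpr, TMM factors were computed, and the quasi-likelihood test was run with Benjamini-Hochberg adjustment over all genes tested. The limits for a call were 0.05 for the adjusted P value and 1.5 for the fold change, the latter not used for the interaction. CPM were scaled over all 12 libraries and fold changes within each comparison. The steps were tested on simulated data. Shares, motif searches and figures used Python 3.11.15, scipy and matplotlib 3.10.9.

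Depth lay between 116127966 and 160676189 counts per library, where 3 counts equal 0.0172 to 0.0285 CPM, and counting error adds most where members had few counts (Myh3 and Myh8, Myh7b in atria, and Myl7 in 2 CUG960 +dox ventricles). Replicates were separate mice, and by the study's methods the genotypes came from separate crosses, so effects of litter and genotype cannot be told apart.

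The same mice gave both chambers. After subtraction of group means, libraries of the same mouse correlated at r between 0.030 and 0.135 and those of different mice at r between −0.141 and 0.054, and the mouse was a block in an alternative fit. Other alternatives were DESeq2 1.42.0 (the authors' tool), other scalings, filters, thresholds and lengths, all libraries in 1 fit, and leaving out each mouse.

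The members and lists were chosen with earlier results of these data known. Named genes were the members, genes of the 5 myosin and stress lists that were called in at least 1 chamber or were most abundant in their list, the genes most like 5 members, and of marker lists the most abundant gene and genes at 0. Myh1, Myh2, Myh13, Gja1, Kcnk3, Kcnj2, Irx3, Irx5, Lrrc10, Irx4, Kcnip2, Acta1, Nppb, Tek, Npr3, Postn, Plin1, Bmp10, Dkk3, Kcna5, Tagln, Lmod1, Tnni2, Tnnt3, Tnnt1, Pvalb and Myod1 were named after their values were seen.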

Additional observations from a re-analysis of the deposited data

Results flagged for a closer look

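Nppa was flagged because its change with genotype differed between chambers by the interaction term of edgeR: CUG960 +dox over control was 1.72 higher in ventricles than in atria on the log2 scale (SE 0.38, adjusted P = 0.049), being higher in all 3 CUG960 +dox ventricles than in any control and lower in all 3 CUG960 +dox atria. Tnni1 was flagged by the same term, at 1.54 (SE 0.35, adjusted P = 0.0498), with all 3 CUG960 +dox ventricles above the controls and the atria overlapping. Of the marker genes named beside the members, 5 also passed this test. The change in ventricles was below that in atria for Bmp10 (−4.10, SE 0.51, adjusted P = 0.0021), Tagln (−1.845, SE 0.40, adjusted P = 0.045) and Fhl2 (−0.94, SE 0.12, adjusted P = 0.0023), and above it for Gja1 (0.64, SE 0.098, adjusted P = 0.0080) and Npr3 (0.75, SE 0.15, adjusted P = 0.029). No member was flagged, and groups of 3 mice were not screened for outlying samples.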

How the results depend on the processing

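Of 675 log2 fold changes of members under alternatives, 648 kept their direction and side of the threshold, 17 reversed, 6 lost the call and 4 gained it. In atria Myh8 kept its call in every alternative in which it was tested, at 2.11 to 2.28. In ventricles it was tested only where the filter admitted it through the CUG960 +dox counts, so its calls there do not show stability. The fitted values against near-empty controls were 3.85 to 4.79 in ventricles (the highest without V327). Summed pairs gave 0.22 in atria and 0.25 in ventricles for Myh6 with Myh7, and 2.17 and 3.19 for Myh8 with Myh3; the latter does not bear on reads that Myh8 shares with other chains, since Myh3 had 0 to 2 counts. With no fold limit 3 members were called in atria (Myh6, Myh8 and Myl1) and 2573, 1680, 9726 and 9517 genes in atria, in ventricles and between the chambers in controls and in CUG960 +dox mice. With a log2 limit of 1.5 these were 216, 199, 2233 and 2200 genes, and 1 member in ventricles. In ventricles 1 member was also called with total counts (Myh8) and with at least 10 counts in every library (Myl1, as Myh8 was not tested), and 1 to 3 on leaving out a mouse. For the interaction, DESeq2 called 660 genes against 253, and leaving out a mouse gave 74 to 131 genes and 0 to 1 members. Total counts also reversed Myh7 between chambers (0.11 and 0.0055), moved the higher share of ventricular genotype calls from 63.1% to 80.6%, and raised that of chamber calls from 52.4% to 82.7% in controls and from 51.2% to 79.7% in CUG960 +dox mice.

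With the mouse as a replicate block, the chamber calls of members were the same in number (7 in each genotype), the interaction called no member, and the Myl4 and Myl7 terms reversed to −0.44 and −2.67 without a call. Without V123, Myl4 and Myl7 in ventricles reversed to −2.06 and −5.44 (highest on leaving out a mouse 1.19 and 1.53), and their interactions to −1.88 and −5.57. Other reversals had no call: Myl7 in atria without V119 (−0.068, highest 0.12), Myl3 in atria without V327 (0.11, lowest −0.87), Myl2 in ventricles without V334 (−0.023, highest 0.13), and the interactions of Myh7 without V120, V123, V327 and V334 (−0.0095, −0.081, −0.0061 and −0.046, highest 0.17), Myh6 without V327 (−0.0057, highest 0.047) and Myh7b without V327 (−0.096, highest 0.39). Single libraries set the value for Myl4 and Myl7 in ventricles (V123) and for Myl3 in atria (V327). The cause of the other reversals was not tested. The differences in isoform shares moved by less than the SD pooled over both genotypes under every alternative run, but 5 of the 6 changed sign on leaving out a mouse; that of the Myl7 share in ventricles, for example, lay between −0.177 and 0.237 percentage points, against a pooled SD of 0.353.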
